A study of Rattus norvegicus with 24 samples.

Results

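The protamines Prm1 and Prm2, the transition proteins Tnp1 and Tnp2, and Hils1 were followed here in germ cells of young and aged rats. These 5 genes were listed by name, and each had exactly 1 probe set with a single symbol in the platform annotation, so 5 probe sets stood for them among 20826 single-symbol probe sets of 14217 genes. RNA of 24 Affymetrix rat arrays came from testes of Brown Norway (BN) rats aged 4 months (young) or 18 months (aged). Pachytene spermatocytes and round spermatids were separated by sedimentation in a STAPUT gradient after collagenase and trypsin, with a purity above 83% per the labels' protocols. Each of the 4 groups (young pachytene, aged pachytene, young round and aged round) held 6 arrays, and no group carried a transgene, deletion or drug per the labels. The numbers in the titles tie a pachytene and a round array to each of 12 rats, whose number limits the precision. The fractions were enriched rather than pure.

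Spermatids exchange the histones of their chromatin for small basic proteins. Transition proteins take the place of histones, and protamines then replace them and pack the sperm nucleus, while Hils1 is a linker histone of spermatids. The genes are transcribed in round spermatids after meiosis, and their mRNAs are stored and translated later. The level of their RNA in a pachytene fraction was used here as a measure of spermatid RNA there. In such bulk samples, fewer cells of a type and less RNA per cell cannot be told apart, and transcription in the spermatocytes themselves was not measured apart.

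Promoter windows are shown because the genes moved together on the arrays and 3 of the members lie in 1 cluster. On chromosome 10 of assembly GRCr8 the order of genes is Prm1, Prm2, Prm3 and Tnp2, followed by Socs1. Hils1 lies elsewhere on chromosome 10, and Tnp1 on chromosome 9. Start windows were matched for 4 of the 5 genes, in RefSeq tables of GRCr8. Each sequence below gives the 250 bases before the annotated start, 5′ to 3′ on the gene's strand. Capitals mark TGACGTCA, the cAMP response element that CREM and its relatives bind, its variant TGACTTCA, and TATAA, searched on both strands. The windows are chr10:5378490-5378739 (plus strand), chr9:82044279-82044528 (minus strand), chr10:5386485-5386734 (plus strand) and chr10:80410111-80410360 (plus strand).
Prm1: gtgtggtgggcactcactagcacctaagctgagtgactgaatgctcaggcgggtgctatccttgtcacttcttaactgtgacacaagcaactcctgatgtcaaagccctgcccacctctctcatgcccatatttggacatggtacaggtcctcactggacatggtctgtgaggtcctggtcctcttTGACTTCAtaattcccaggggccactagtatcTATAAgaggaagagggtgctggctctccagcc
Tnp1: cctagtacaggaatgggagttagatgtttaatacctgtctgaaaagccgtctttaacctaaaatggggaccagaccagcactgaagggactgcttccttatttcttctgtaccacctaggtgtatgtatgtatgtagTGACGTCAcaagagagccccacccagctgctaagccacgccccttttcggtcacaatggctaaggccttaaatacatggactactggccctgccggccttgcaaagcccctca
Tnp2: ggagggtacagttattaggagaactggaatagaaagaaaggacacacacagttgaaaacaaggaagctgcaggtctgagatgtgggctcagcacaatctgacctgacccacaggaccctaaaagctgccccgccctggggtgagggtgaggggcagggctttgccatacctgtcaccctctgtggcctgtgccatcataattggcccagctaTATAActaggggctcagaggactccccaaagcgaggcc
Hils1: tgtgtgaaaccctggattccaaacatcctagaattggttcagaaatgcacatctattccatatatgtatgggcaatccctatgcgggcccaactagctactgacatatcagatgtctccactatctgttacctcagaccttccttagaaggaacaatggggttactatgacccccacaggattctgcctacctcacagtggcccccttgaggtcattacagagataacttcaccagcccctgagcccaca
Tnp1 held TGACGTCA starting 113 bases before its start, as did 1.59% of 33469 such windows. Prm1 held TGACTTCA at 64 bases before its start, a run found in 1.43% of the windows. TATAA stood 32 bases before the start of Prm1 and 38 bases before that of Tnp2, and in 8023 of the 33469 windows. The letters were chosen after the windows had been read, and a match is a description of the sequence, not a binding site.

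Levels are log2 signals as deposited, and SD is over the 6 rats of a group. All 5 genes were higher on average in round than in pachytene fractions (plot of levels per array). For Prm1, which encodes a protamine, the lowest, median and highest array lay at 14.95, 15.18 and 15.47 in young pachytene fractions and at 14.70, 14.79 and 14.97 in aged ones. In round spermatids Prm1 lay at 15.44, 15.48 and 15.51 in young and at 15.36, 15.44 and 15.52 in aged rats. All 6 aged pachytene arrays lay below every aged round array, and 5 of 6 young ones below every young round array. The exception was young rat 1, whose pachytene array (15.47) lay within the range of the young round arrays.

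Prm2, the protamine made as a longer precursor, varied most over the arrays. Its pachytene arrays lay at 11.56, 12.32 and 13.79 (lowest, median and highest) in young and at 10.93, 11.15 and 11.82 in aged rats. Its round arrays lay at 14.03, 14.18 and 14.40 in young and at 13.81, 13.93 and 14.19 in aged rats. The pachytene and round arrays of Prm2 did not overlap in either age.

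The transition proteins followed the same order of groups. Tnp1 lay at 14.27, 14.69 and 15.16 in young and at 13.86, 14.04 and 14.38 in aged pachytene fractions. In round spermatids Tnp1 lay at 15.20, 15.24 and 15.28 in young and at 15.05, 15.14 and 15.23 in aged rats. Tnp2 lay at 13.85, 14.25 and 15.03 in young and at 13.34, 13.51 and 13.93 in aged pachytene fractions, against 15.14, 15.17 and 15.22 in young and 14.95, 15.07 and 15.15 in aged round spermatids. For both genes 5 of 6 aged arrays lay below every young one within each fraction, and pachytene and round arrays did not overlap. After quantile normalization 2 of 6 aged round arrays of Tnp2 lay below every young one.

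Hils1 lay at 13.39, 13.88 and 14.68 in young and at 12.77, 12.90 and 13.37 in aged pachytene fractions. Its young and aged pachytene arrays did not overlap on the deposited scale, unlike those of the other 4 genes. For those, 5 of 6 aged arrays lay below every young one. After quantile normalization 5 of 6 aged arrays of Hils1, Tnp1 and Tnp2 lay below every young one, and 4 of 6 of Prm1 and Prm2. The median age change of all probe sets in pachytene fractions was -0.24 on the deposited scale. The share of all probe sets without overlap was not counted for any comparison, so non-overlap of a member is only a description. In round spermatids it lay at 14.73, 14.82 and 14.89 in young and at 14.47, 14.73 and 14.80 in aged rats, where the ages overlapped. For all 5 genes the order of group means was young round, aged round, young pachytene and aged pachytene. Young and aged round spermatids were neighbours in that order whose arrays overlapped for every member.

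**Figure D1:**
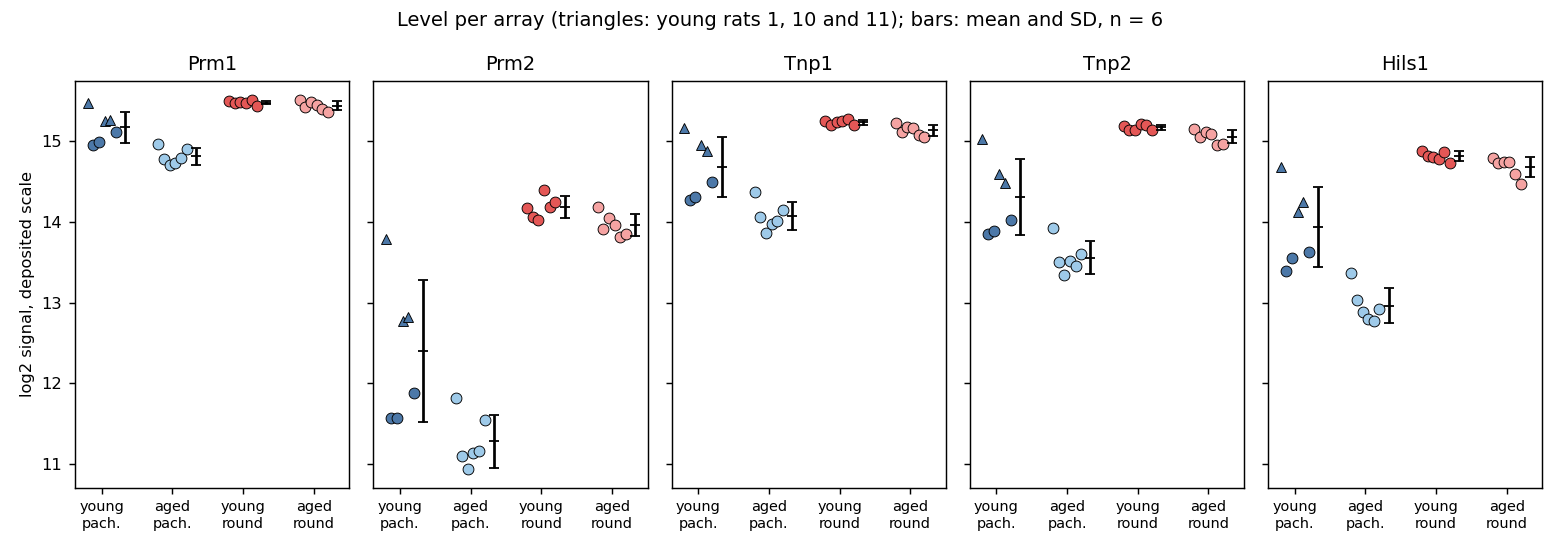
Deposited log2 signal of each gene (panels) on each of 24 arrays by group, with the mean and SD of 6 rats; triangles are young rats 1, 10 and 11. Prm1 stays between 14.70 and 15.52 over all arrays, while Prm2 spans from 10.93 to 14.40, and the triangles are the highest young pachytene arrays in every panel.

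Several of these probe sets stood at the top of the arrays' scale in round spermatids. The deposited values carry no saturation flag, so nearness to the top was read from ranks. Prm1 was the brightest of all 31099 probe sets on 12 of 12 round spermatid arrays and on 3 of 12 pachytene arrays. Tnp1 ranked 2 or 3 on every round array, Tnp2 from 3 to 8, Hils1 from 15 to 29 and Prm2 from 47 to 171. These ranks describe the scale and say nothing of which transcript was more abundant, since probe sets differ in their response.

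Within each fraction, the brighter members spread less over rats. Within ages, the SD of Prm1 over rats was 0.156 in pachytene and 0.043 in round arrays, and that of Prm2 was 0.668 and 0.136. Tnp1 (0.289 and 0.052), Tnp2 (0.360 and 0.062) and Hils1 (0.383 and 0.095) lay between them. Over the 12 pachytene arrays Prm2 spanned 2.86 and Prm1 0.770, so the same 12 samples moved Prm1 over 26.9% of the range of Prm2 on the log2 scale. Tnp1 covered 45.4%, Tnp2 59.1% and Hils1 67.0% of that range. Across all 31042 probe sets the median SD within age was 0.166 in pachytene and 0.097 in round arrays, and among the 128 with a round level over 14 it was 0.112 and 0.093. Against these bright probe sets, all 5 members spread more in pachytene arrays, and Prm1, Tnp1 and Tnp2 spread less in round arrays. Whether the scale held down their round values was not tested.

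**Figure D2:**
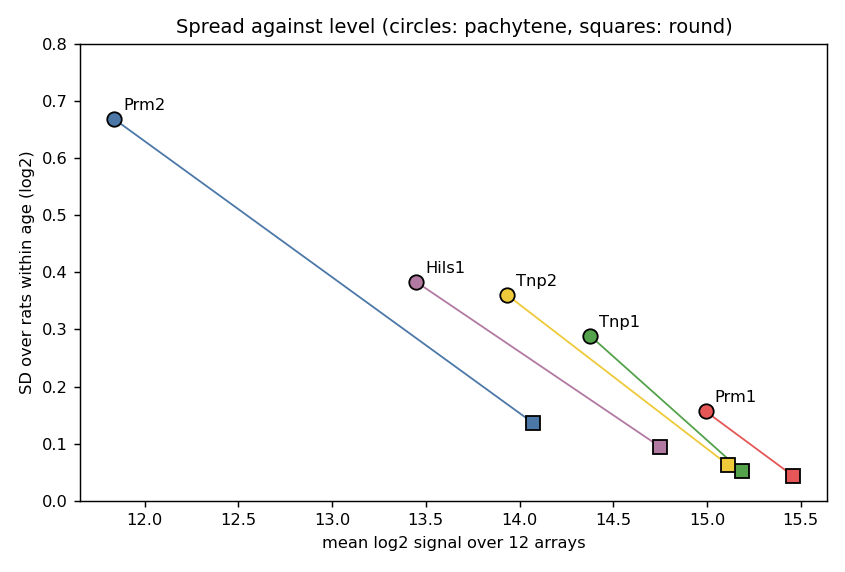
SD over rats within age (vertical axis, log2) against the mean log2 signal of 12 arrays, for each gene in pachytene (circles) and round (squares) fractions joined by a line. Within each fraction the points run downhill, from Prm2 (11.84, SD 0.668) to Prm1 (14.99, SD 0.156) in pachytene and from Prm2 (14.07, SD 0.136) to Prm1 (15.46, SD 0.043) in round arrays.

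All 5 genes were higher in round spermatids. The fit used 12 arrays per cell type, after the pachytene values were matched to the background of the round arrays by an offset and all arrays were quantile normalized. Prm2 was 4.57-fold higher (log2 difference 2.19, SE 0.20; limma, adjusted p = 5.11e-10), Hils1 2.29-fold (1.20, SE 0.10; adjusted p = 5.84e-11) and Tnp2 2.09-fold (1.06, SE 0.09; adjusted p = 2.68e-10). Tnp1 was 1.65-fold higher (0.72, SE 0.07; adjusted p = 3.90e-09) and Prm1 1.21-fold (0.27, SE 0.04; adjusted p = 5.00e-07). Of all probe sets 46.9% were higher and 38.3% lower in round spermatids, so a call alone says little. The smallest step was that of Prm1, the brightest probe set of every round array. Quantile normalization gives the brightest probe set of each array the same value. Prm1 was also the brightest on the pachytene arrays of young rats 1, 10 and 11, so it left no difference in those rats. In young rats alone the difference of Prm1 was thus 0.13 (adjusted p = 0.0514). The deposited means of young rats were 15.17 in pachytene and 15.48 in round arrays.

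The pachytene level was then set as a percent of the round level of the same rat, on the linear scale with the offset. Each percent rests on the round value of its own probe set, and a round value held down by the scale would raise it, which was not tested, so percents are compared between rats and not between genes. In young rats the mean was 34.3% ± 22.6 (SD, n = 6) by Prm2, 57.1% ± 18.6 by Hils1, 57.5% ± 18.4 by Tnp2, 69.9% ± 16.9 by Tnp1 and 81.6% ± 10.7 by Prm1. In aged rats it was 16.4% ± 3.30 by Prm2, 30.9% ± 4.33 by Hils1, 35.9% ± 4.74 by Tnp2, 48.3% ± 5.75 by Tnp1 and 65.1% ± 5.35 by Prm1. None of these percents is a share of cells.

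Young rats 1, 10 and 11 had the 3 highest percents by every member, by a small margin for Prm1. By Prm1 they lay at 98.4%, 86.1% and 84.8%, and young rats 13, 3 and 2 at 80.1%, 70.9% and 69.4%. By Prm2, young rat 1 reached 77.0% of its own round level, rat 11 reached 39.2% and rat 10 reached 32.8%. Young rats 2, 3 and 13 lay at 18.3%, 18.7% and 19.8%. Aged rats lay from 12.1% (rat 5) to 20.7% (rat 10), which overlaps with young rats 2, 3 and 13. By Hils1, young rats 1, 11 and 10 lay at 87.1%, 65.3% and 63.7%, young rats 2, 3 and 13 at 37.4% to 46.9%, and aged rats at 26.1% to 37.4%. The 3 highest young pachytene arrays were those of rats 1, 10 and 11 for all 5 genes, and aged rat 2 was the highest aged array for all 5.

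The same arrays were high in other late spermatid transcripts. The median percent of round over 14 measured late genes outside chromatin was 77.0% in young rat 1, 53.2% in rat 11 and 47.3% in rat 10. It lay at 25.0% to 33.5% in young rats 2, 3 and 13 and at 19.0% to 25.9% in aged rats. Fscn3, an actin-bundling protein of the testis, gave 25.2% ± 23.7 in young and 9.77% ± 1.56 in aged rats, and Tsks, a substrate of testis-specific kinases, 29.1% ± 17.7 and 13.9% ± 1.43. Odf2, of the outer dense fibres, gave 71.7% ± 13.3 and 63.4% ± 2.73.

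**Figure D3:**
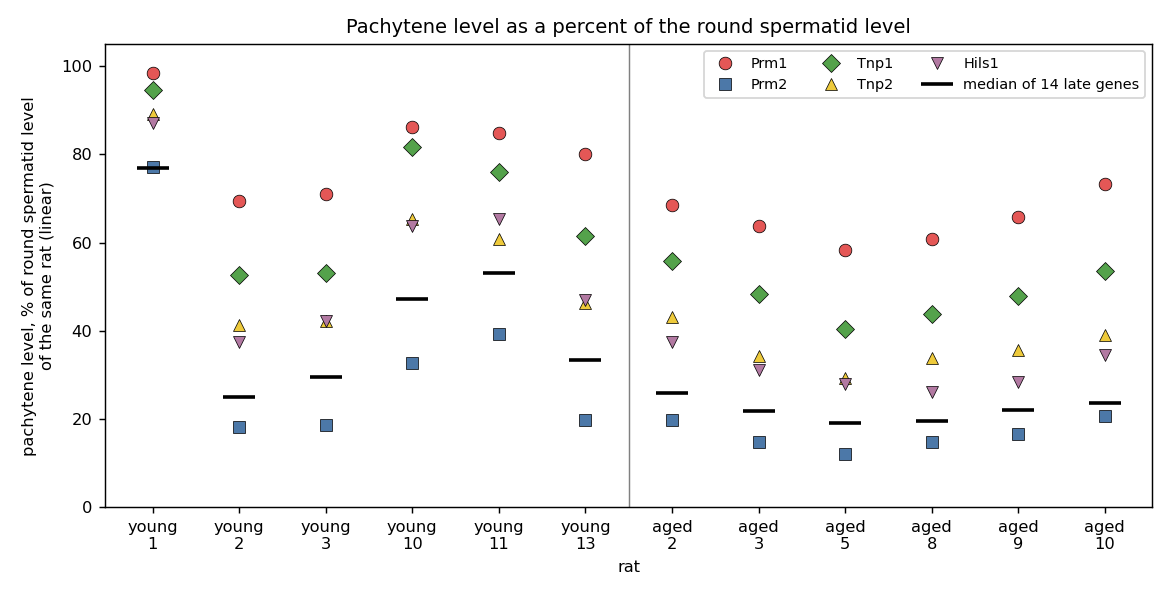
Pachytene level of each gene as a percent of the round spermatid level of the same rat (vertical axis, linear), for 6 young and 6 aged rats; black bars are the median over 14 late spermatid genes. Young rat 1 lies between 77.0% and 98.4% by every gene, and young rats 1, 10 and 11 are the 3 highest of the 12 rats by every gene.

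Marker sums and an RNA control were compared over the same rats. The summed level of 9 pachytene markers was lower in the pachytene arrays of young rats 1, 10 and 11 (15.63 to 15.86, log2 of the linear sum) than in those of rats 2, 3 and 13 (15.94 to 15.97). The sum of 8 macrophage markers was higher (12.79 to 13.54 against 11.79 to 12.12) and reached 13.40 to 13.90 in round arrays, with 3 of 8 markers above the array median in every pachytene array. The sum of 7 spermatogonia markers was higher too (up to 11.73, against at most 10.75, with no overlap) and reached 11.62 to 12.20 in round arrays. That of 11 Sertoli cell markers overlapped (15.62 to 16.41 against 15.49 to 15.69). The sum of 9 round spermatid markers overlapped as well (15.77 to 16.26 against 15.65 to 15.81). A linear sum weighs bright markers most, and Crisp2 was the brightest of these in pachytene arrays (mean 14.92). As a percent of round, Acrv1, Spaca3, Spam1 and Ace were higher in each of rats 1, 10 and 11 than in rats 2, 3 and 13. Acr, Acrbp, Zpbp, Zpbp2 and Crisp2 overlapped by that measure. The difference of the 3′ and 5′ actin controls, a sign of RNA quality, was 1.01 in young rat 1 and 1.04 in rat 11, and 1.32 to 1.51 in the other 10 pachytene arrays, rat 10 among them, against 0.858 to 1.24 in round arrays. The part of these in the members' levels was not tested.

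Age was compared within pachytene fractions after quantile normalization, and all 5 genes fell. Hils1 fell from 13.89 ± 0.45 to 12.98 ± 0.23 (SD, n = 6 each; 1.88-fold, log2 change -0.91, SE 0.18; limma, adjusted p = 0.00303). Tnp2 fell 1.65-fold (-0.72, SE 0.17; adjusted p = 0.00703) and Tnp1 1.48-fold (-0.57, SE 0.14; adjusted p = 0.00739). Prm1 fell 1.20-fold (-0.26, SE 0.07; adjusted p = 0.0135). Prm2 had the largest change and the largest error (2.06-fold, -1.04, SE 0.34; adjusted p = 0.0294). Among all 31042 probe sets 15.4% fell and 22.1% rose in this comparison, and the median change was 0.05, against -0.72 for the members. Of 9 round spermatid markers 4 fell and 1 rose (median -0.09). Of 11 Sertoli cell markers 9 fell and 0 rose (median -1.17), and without young rats 1, 10 and 11 again 9 fell (median -0.76). Their part in the members' change was not tested.

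Calls changed with the scaling and when the 3 high young rats were left out. These 3 were the highest young pachytene arrays for all 5 members, so leaving them out had to shrink each fall. It also left fewer young rats, so a lost call does not show that a fall rests on them. Without young rats 1, 10 and 11, Prm2 changed by -0.30 (SE 0.18, adjusted p = 0.250), Prm1 by -0.15 (adjusted p = 0.150) and Tnp1 by -0.29 (adjusted p = 0.0716), so their calls were lost. Hils1 (-0.52, SE 0.12, adjusted p = 0.00878) and Tnp2 (-0.36, SE 0.11, adjusted p = 0.0391) kept theirs. With each array centred on its median, 1 of 5 members was called, Hils1 (-0.60, adjusted p = 0.0128), and Prm1 changed by 0.02. Of all 31042 probe sets 4161 fell and 10625 rose under that centring. With arrays centred on hybridization controls Prm1 missed the threshold (-0.24, adjusted p = 0.0504). With median centring and those 3 rats left out none was called, and Hils1 lay at -0.30 (adjusted p = 0.144). The call of Prm2 was also lost without young rat 10 or 11 or without aged rat 3, 5, 8 or 9 alone (adjusted p = 0.0565 to 0.0663), while the other members kept theirs without any 1 rat.

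**Figure D4:**
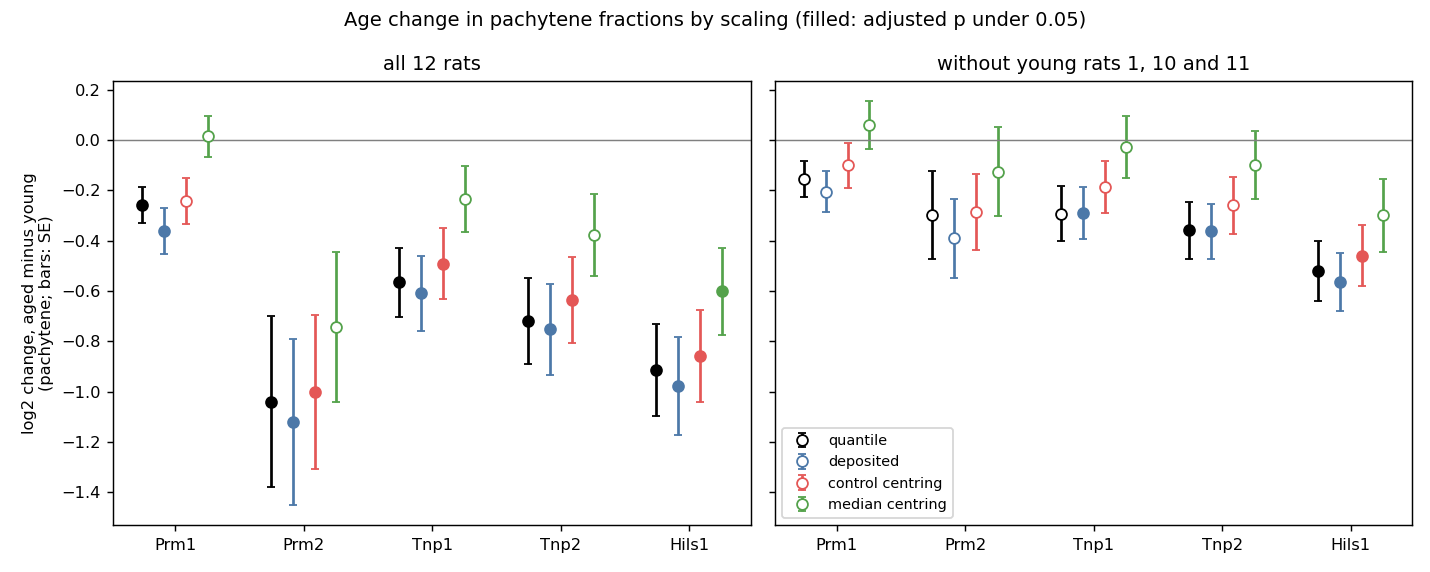
Log2 change with age in pachytene fractions (vertical axis, aged minus young, with SE) for each gene under 4 scalings, with all 12 rats (left) and without young rats 1, 10 and 11 (right); filled points have an adjusted p under 0.05. Hils1 is filled in 4 of 4 scalings on the left and in 3 of 4 on the right, and Prm2 moves from -1.04 to -0.30 under quantile normalization.

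Within round spermatids the members changed by smaller values, and 1 of 5 was called. Hils1 fell 1.09-fold (-0.12, SE 0.03, limma, adjusted p = 0.0113, n = 6 per age), from 14.82 ± 0.03 to 14.70 ± 0.05. After quantile normalization all 6 aged arrays of Hils1 lay below every young one, and on the deposited scale 2 of 6 did. The share of all probe sets without overlap was not counted. Prm2 changed by -0.20 (SE 0.07; adjusted p = 0.0523), Tnp2 by -0.06 (SE 0.03; adjusted p = 0.126) and Tnp1 by -0.04 (SE 0.02; adjusted p = 0.294), and none of these passed the threshold. Of all probe sets 8.48% fell and 8.65% rose. Of 9 pachytene markers 4 rose and 0 fell in the same arrays (median 0.29). On the deposited scale 7 rose (median 0.52), where of all 31042 probe sets 16477 rose and 695 fell (median 0.14). Of 11 Sertoli cell markers 8 fell and 0 rose (median -0.60), and the part of either list in the members' change was not tested. Quantile normalization assigns 1 value to the brightest probe set of all arrays, so it leaves no age change to measure for Prm1. Tnp1 ranked 2 on all 6 young round arrays and so took a single value there. On the deposited scale Prm1 changed by -0.04 (SE 0.04; adjusted p = 0.384). Hils1 lost its call on the deposited scale (-0.13, adjusted p = 0.0514), with arrays centred on hybridization controls (-0.10, adjusted p = 0.311) and without young rats 1, 10 and 11 (-0.11, adjusted p = 0.144). Prm2 passed the threshold on the deposited scale (-0.22, adjusted p = 0.0221) and without young rat 2, young rat 3 or aged rat 2 (adjusted p = 0.0201 to 0.0422). Tnp2 passed on the deposited scale as well (-0.11, adjusted p = 0.0413), where the median change of all probe sets was 0.14. With median centring Prm1 (-0.17), Prm2 (-0.36), Tnp1 (-0.23), Tnp2 (-0.25) and Hils1 (-0.27) were all called lower. Of all 31042 probe sets 1782 were lower and 1764 higher under that centring.

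The age change differed between the fractions for Hils1, Tnp2 and Tnp1, where 5.98% of all probe sets had a higher and 7.04% a lower change in round spermatids. The difference, round minus pachytene, was 0.78 for Hils1 (SE 0.19; limma, adjusted p = 0.0110), 0.65 for Tnp2 (SE 0.19; adjusted p = 0.0247) and 0.51 for Tnp1 (SE 0.15; adjusted p = 0.0261). For Prm1 the round side was fixed by the normalization, so its value of 0.28 is the pachytene change alone and tests no difference. For Prm2 it was 0.93 (SE 0.40; adjusted p = 0.126). This difference uses the same arrays as the comparisons within each fraction. The round side ranked from 2 to 8 on the arrays for Tnp1 and Tnp2. For Tnp1 it ranked only 2 or 3, so normalization nearly fixed it, and its 0.51 is close to its pachytene change alone. Without young rats 1, 10 and 11 none of the 5 was called by limma, with Hils1 at 0.41 (adjusted p = 0.0549). None was called with median centring either, where Hils1 was at 0.48 (adjusted p = 0.0582). Of all 31042 probe sets 1298 were higher and 1277 lower without these rats, and 2851 higher and 8349 lower with median centring. The call was also lost for Tnp1 when young rat 1, 10 or 11 or aged rat 3, 5, 8 or 9 was left out (adjusted p = 0.0550 to 0.0687) and for Tnp2 without young rat 10 or 11 or aged rat 3, 5, 8 or 9 (0.0506 to 0.0671). That of Hils1 held without any 1 rat.

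Other genes of chromatin exchange moved in both directions. Of 15 measured genes among 20 listed for histone variants and histone-to-protamine exchange, 5 fell and 2 rose with age in pachytene fractions (median 0.09), where 15.4% of all probe sets fell and 22.1% rose. Cul4b, a ubiquitin ligase scaffold, changed by -1.23 (limma, adjusted p = 0.000571), Top2b, a topoisomerase, by -0.95 (adjusted p = 0.00151), Cdyl, a chromodomain protein, by -1.16 (adjusted p = 0.0133) and Camk4, a kinase of spermatids, by -1.04 (adjusted p = 0.0136). Prm3, which lies between Prm2 and Tnp2, fell too (adjusted p = 0.0149), from 12.51 ± 0.76 to 11.47 ± 0.28 (SD, n = 6 each). Kat5, an acetyltransferase, rose by 0.71, and the testis linker histone H1f6 rose by 0.70 (adjusted p = 0.0158). Without young rats 1, 10 and 11, 3 fell and 1 rose, and with median centring 5 fell and 7 rose. Of all 31042 probe sets 3267 fell and 4333 rose without these rats, and 4161 fell and 10625 rose with median centring.

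Between cell types that list was split, with 5 genes higher and 10 lower in round spermatids, against 46.9% and 38.3% of all probe sets. Parp2, which acts on DNA breaks, was lower (-1.99), as was Rnf8, a ubiquitin ligase (-0.71), and the histone H2ac1 (0.75) and the proteasome activator Psme4 (0.30) were higher, all on the log2 scale. In round spermatids 3 fell and 2 rose with age, against 8.48% and 8.65% of all probe sets, led by Kat5 (0.47, adjusted p = 0.00361), Cul4b (-0.23, adjusted p = 0.00982), Prm3 (-0.21, adjusted p = 0.0180) and Cdyl (-0.44, adjusted p = 0.0348). The difference of the age change was called for Cul4b (0.52, limma, adjusted p = 0.0344) and H1f6 (-0.42, adjusted p = 0.0296). Both lay near the background in round arrays, at a mean of 7.61 (Cul4b) and 7.40 (H1f6). Absent controls averaged 6.77 in young and 6.90 in aged round arrays. Whether the background held down their round change was not tested.

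Of 13 measured genes among 19 that govern transcription, storage and translation of spermatid mRNAs, 3 rose and 3 fell with age in pachytene fractions (median 0.01), close to the shares of all probe sets (22.1% and 15.4%). Celf1, an RNA-binding protein, changed by -0.61 (limma, adjusted p = 0.00101), Paip2b by -0.49 and Paip2 by -0.51, both of which bind poly(A)-binding protein, and Rfx2, a transcription factor of spermatids, by 0.18. Between cell types 6 were higher and 7 lower in round spermatids, against 46.9% and 38.3% of all probe sets. Crem, the activator of haploid genes, was higher by 0.96, Papolb, a testis poly(A) polymerase, by 1.29, and Elavl1, an RNA-binding protein, lower (-2.01). In round spermatids 3 rose and 3 fell with age, against 8.65% and 8.48% of all probe sets, with Tbpl1, a relative of the TATA-binding protein, at 0.41. The difference of the age change was called for 0 of the 13 by limma (2 had an unadjusted p under 0.05).

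Late spermatid genes outside chromatin were also followed. Of 14 measured among 24 listed, 13 fell and 0 rose with age in pachytene fractions (median -0.97), and 14 of 14 were higher in round spermatids (median 1.69). Of all probe sets 15.4% fell and 22.1% rose with age in pachytene fractions, and 46.9% were higher in round spermatids. Odf1, of the outer dense fibres, changed by -0.67 (limma, adjusted p = 0.00375), Smcp, of the mitochondrial capsule, by -0.77, Oaz3, an antizyme of spermatids, by -0.68 and Capza3, an actin capping protein, by -1.18. With young rats 1, 10 and 11 left out, 10 fell and 0 rose (median -0.40), with median centring 10 fell and 1 rose, and with both 0 fell and 1 rose. Of all 31042 probe sets 3267 fell and 4333 rose without these rats. With median centring 4161 fell and 10625 rose, and with both 2708 fell and 4873 rose. In round spermatids 5 of the 14 fell and 0 rose (median -0.12), against 8.48% and 8.65% of all probe sets. Capza3 (-0.15, limma, adjusted p = 0.00528) and Akap4 (-0.18, adjusted p = 0.00788) led these.

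The genes most like the mean of the members over the pachytene arrays were named by a fixed number. Likeness was Pearson's r over the 12 pachytene arrays after the mean of each age was taken off, and 216 of 14212 other genes lay above 0.95. The highest was C7h12orf54 (r = 0.995), followed by Dynll2, a dynein light chain (0.994), Hmgb4, an HMG-box protein of spermatids (0.992), Cabs1, a calcium-binding protein of the sperm tail (0.991), Fam221b (0.990), Akap4, of the fibrous sheath (0.989), Asb13 (0.989) and Gapdhs, the glycolytic enzyme of sperm (0.989). Without young rats 1, 10 and 11 the r of these 8 genes was 0.964 to 0.996 over 9 arrays. The arrays share their scale and the same rats, so r describes the arrays. Over the round arrays quantile normalization fixed Prm1 and nearly fixed Tnp1. Prm2 had the largest SD there (0.164 in young and 0.076 in aged rats), so the members did not weigh equally in their mean. The genes most like that mean were Ccdc6 (0.968), Cox8a (0.964), Glrx2 (0.963) and Reep6 (0.959). None of these 4 was among the 4 highest on the deposited scale.

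The arrays as a whole set the frame for these values. Median log2 levels of arrays ran from 6.62 to 7.38 in pachytene and from 7.56 to 7.86 in round fractions, and absent controls averaged 4.38 and 4.19 in young and aged pachytene against 6.77 and 6.90 in young and aged round arrays. The members lay far above both levels. The share of called probe sets that were higher with age was 59.0% in pachytene fractions, but 7.06% on the deposited scale, 22.2% with hybridization control centring, 44.2% with cyclic loess and 71.9% with median centring. In round spermatids it was 50.5%, but 96.0% on the deposited scale and 95.1% with hybridization control centring. For the difference of the age change it was 45.9%, but 99.9%, 99.7% and 25.5% on the deposited scale, with hybridization controls and with median centring, and between cell types 55.1% were higher in round spermatids, but 40.4% with hybridization control centring. On the deposited scale the median change of all probe sets with age was -0.24 in pachytene and 0.14 in round fractions. Of the 9 measured pachytene markers 8 were lower in round spermatids and Ccna1 was higher, and of 9 round spermatid markers 8 were higher and Crisp2 was lower; the fractions thus went with their labels. Of 11 Sertoli cell markers 9 were lower in round spermatids, and Aard fell with age in pachytene fractions (-1.18, adjusted p = 0.000272).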

How the data were processed

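RNA was hybridized as biotinylated cRNA, made from 3 ug of total RNA per the labels' protocols, on 24 Affymetrix rat arrays. The deposited values are log2 signals for 31099 probe sets. Which program summarised them is not stated in the sources used here. After 57 control probe sets were left out, limma 3.58.1 (lmFit and eBayes, R 4.3.3) was run on 31042 probe sets with Benjamini-Hochberg adjustment over all of them and a threshold of 0.05. Age was tested within each fraction after quantile normalization, except Prm1 in round spermatids, which that normalization fixes and which is given on the deposited scale. Cell type and the difference of the age change were tested on 4 group means. For these an offset of 90.3 was added to the linear pachytene values, which brought 45 spiked controls from a mean difference of 0.61 ± 0.77 to -0.03 ± 0.17 (SD over controls), and all arrays were quantile normalized. The fits were tested on simulated data.

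Members and lists were chosen with earlier results of these data known. All member probe sets are named, with the 8 (pachytene) and 4 (round) genes most like their mean and, of each list, up to 4 genes with the smallest p in a comparison. Prm3, H1f6, Kat5, Crem, Fscn3, Tsks, Odf2, Ccna1 and the measured round spermatid markers are named beyond that rule in some places, chosen after their values were seen. Of 138 listed genes 99 had a probe set with 1 symbol. The fractions of a rat are paired by the labels. Their deviations from group means correlated at -0.07 to 0.32, above 0.1 in 8 of 12 rats. Young and aged labels share some numbers, but these are different rats. Alternatives were other scalings, filters, variance models, weights, blocks and left-out rats. The 3 rats left out together were the highest young pachytene arrays by the members themselves. Leaving them out therefore shrinks the members' fall with age by selection. Scalings combined with leaving out 3 rats were chosen after the data were seen. The labels name no batch.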

Additional observations from a re-analysis of the deposited data

Results flagged for a closer look

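The age change differed between the fractions, by the test of the difference itself, for Hils1 (0.78, round minus pachytene), Tnp2 (0.65) and Tnp1 (0.51). For Prm1 the same fit gave 0.28, but quantile normalization fixed its round side, so that value is the pachytene change alone and tests no difference. Tnp1 took a single value on the 6 young round arrays and ranked 2 or 3 on the aged ones (SD 0.018 after normalization within the fraction). Its 0.51 is therefore close to its pachytene change alone. No array stood far enough from the 5 others of its group by Dixon's test in the 20 combinations of gene and group, although chance would flag about 1 in 20.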

How the results depend on the processing

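Precision is limited by 6 rats per age, and whether the top of the scale limits the round values was not tested. Of the 5 members, 5 kept their direction and their call between cell types under every alternative run, except Prm1 in young rats only (0.13). There quantile normalization left no difference for Prm1 in young rats 1, 10 and 11. Values are log2 changes, in the order of the genes named.

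Age in pachytene fractions called 11631 probe sets, and 19153 on the deposited scale. With median centring Prm1, Prm2, Tnp1 and Tnp2 were at 0.016, -0.74, -0.23 and -0.38, with hybridization control centring Prm1 at -0.24, and with array weights Prm2 at -0.53. When young rats 1, 10 and 11 were left out, 7600 were called, with Prm1, Prm2 and Tnp1 at -0.15, -0.30 and -0.29. The next 3 settings were chosen after the data were seen, all without those rats. Hybridization control centring called 5249, with Prm1, Prm2, Tnp1 and Tnp2 at -0.10, -0.29, -0.19 and -0.26. Median centring called 7581, with the 5 genes (Hils1 last) at 0.059, -0.13, -0.026, -0.10 and -0.30. The deposited scale gave Prm1 and Prm2 at -0.20 and -0.39.

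Age in round spermatids called 5316, and 17172 on the deposited scale, with Prm2, Tnp2 and Hils1 at -0.22, -0.11 and -0.13. With median centring Prm1, Prm2, Tnp1 and Tnp2 were at -0.17, -0.36, -0.23 and -0.25. Hybridization control centring called 8716, with Prm1 at 0.00091 and Hils1 at -0.10. Prm2 passed at -0.20 without the 40% dimmest probe sets and with trend and robust variances, and at -0.18 with array weights. Leaving out young rats 1, 10 and 11, 1734 were called and Hils1 was at -0.11. Then hybridization control centring put Prm1 at 0.035 and Hils1 at -0.042, median centring called 577 with Hils1 at -0.22, and the deposited scale put Hils1 at -0.10.

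Between cell types 16874 were called without the dimmest probe sets, against 26419. The difference of the age change, which tests nothing for Prm1 after quantile normalization, called 4042, and 25120 on the deposited scale, with Prm2 at 0.87. Median centring called 11200, with Prm1, Tnp1, Tnp2 and Hils1 at -0.033, 0.15, 0.28 and 0.48. Hybridization control centring called 8006, with Prm1 at 0.25. With cyclic loess Prm1, Tnp1 and Tnp2 were at 0.30, 0.45 and 0.56, and with array weights at 0.19, 0.31 and 0.40. Without young rats 1, 10 and 11, 2575 were called, with Prm1, Tnp1, Tnp2 and Hils1 at 0.14, 0.23, 0.30 and 0.41. Without them, hybridization control centring put Prm1, Tnp1 and Tnp2 at 0.14, 0.18 and 0.24, median centring put the 5 genes at -0.092, -0.043, -0.057, 0.0088 and 0.18, and the deposited scale called 18050, with Prm1, Tnp1 and Tnp2 at 0.18, 0.21 and 0.28. The percent of round by Prm1 in aged rats was 75.4 with quantile normalization over all arrays. Of the named like genes, 5 of 8 (pachytene) and 0 of 4 (round) stayed among the highest on the deposited scale, and 1 of 4 (round) with age means kept. The cause was not tested for any of these.

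Leaving out 1 rat moved Prm2 in pachytene fractions from -1.21 to -0.77 and in round spermatids from -0.24 to -0.16. It moved the difference of the age change from 0.25 to 0.31 for Prm1, 0.45 to 0.58 for Tnp1 and 0.54 to 0.73 for Tnp2, with 2303 to 4828 calls.

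A replicate block over the numbers that young and aged labels share (2, 3 and 10) left 367 calls in pachytene fractions and 0 in round spermatids by limma, where 1500 had an unadjusted p under 0.05 and 5316 were called without a block. Prm1, Prm2, Tnp1, Tnp2 and Hils1 were then at -0.14, -0.44, -0.30, -0.45 and -0.57 in pachytene fractions, and Hils1 at -0.13 in round spermatids, none past the threshold. These are different rats and fewer samples, so the numbers pair nothing. A block on the rat changed no member's call between cell types or for the difference.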
